A study of Homo sapiens with 4 samples.

Results

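The genes described here are epithelial protease inhibitors and the matriptase system: the secreted inhibitors SLPI, PI3, CST3 and CST6, the cytosolic serpins SERPINB1, SERPINB3 and SERPINB4, the membrane Kunitz-type inhibitors SPINT1 and SPINT2, and the protease ST14. They were chosen by name, by matching the Ensembl identifiers of the deposited table to gene symbols in GENCODE release 29, and all 10 were found among 26518 genes. Expression was measured by RNA-seq as TPM, a relative abundance per gene that takes gene length and library size into account. The cells were MDA-MB-468, an established line from a triple-negative breast cancer. There were 2 groups, both infected with lentivirus, after which stable clones were selected with puromycin: shSASH1, carrying a short hairpin RNA against the scaffold protein SASH1, and shControl, carrying the control vector pGIPZ-CTRL, with 2 libraries each. The labels do not say how many clones or hairpins a group represents, or whether its libraries came from separate cultures, so p-values speak only of the spread among these 4 libraries, and part of it may be technical.

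Epithelia make proteases and their inhibitors side by side, and the balance between them governs barrier integrity, shedding of cells and activation of growth factors. Matriptase, the product of ST14, is a membrane serine protease that activates other proteases and receptors at the cell surface, and SPINT1 and SPINT2 (HAI-1 and HAI-2) hold it in check. SLPI and elafin (PI3) carry whey acidic protein domains and block neutrophil elastase, clade B serpins act mostly inside cells, and cystatins block cysteine proteases such as the cathepsins.

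SASH1 stood at 3.65 and 4.01 TPM in the shSASH1 libraries, against 15.0 and 13.0 TPM in the shControl libraries, so the libraries matched their labels. Rebuilt read totals, estimated from TPM and gene length, lay between 19556660 and 24373873 per library. The epithelial markers EPCAM, CDH1, KRT8, KRT18, KRT19, KRT5, KRT17 and EGFR were all above 1 TPM in every library, PGR was at most 0.0248 TPM and ESR1 at most 3.64 TPM. Of 8 leukocyte markers, LYZ and MPO were listed at 0 in all 4 libraries. The summed leukocyte list was 33.6 and 97.2 TPM in shSASH1 and 47.6 and 55.1 TPM in shControl, nearly all of it CD14 and, in shControl, CSF3R. Summed fibroblast and endothelial lists stayed between 3.08 and 11.5 TPM. Nearly all of the fibroblast sum was COL1A1, at 8.98 and 10.9 TPM in shSASH1 and 6.998 and 6.32 TPM in shControl. COL1A2 and LUM were listed at 0. Most of the endothelial sum was KDR and PECAM1. The part of the leukocyte, fibroblast and endothelial lists in the results below was not tested. Of all genes, 14458 averaged at least 1 TPM over the 4 libraries and were tested with limma on log2(TPM + 1), two-sided, with Benjamini-Hochberg adjustment over all of them and a threshold of 0.05. Of these, 2712 were higher and 1918 lower in shSASH1, or 2280 higher and 2434 lower after quantile normalization. Without shControl replicate 1 or 2, 0 genes passed limma's adjusted threshold (3446 and 3326 at an unadjusted p under 0.05), so the calls of these 14458 genes named below were all lost in those fits. Without an shSASH1 library, the spread comes from the closer shControl pair alone and 7728 or 5888 genes passed, so a pass in those fits sets 1 depleted library against the control spread and is no support for a difference.

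CST6 and SERPINB1 rose in SASH1-depleted cells, and no tested member passed as lower. PI3 was lower in both depleted libraries without passing. Of the 10 genes 7 were abundant enough to test, and 2 of the 7 (28.6%) passed, both upward, against 32.0% of all tested genes in either direction, 18.8% upward and 13.3% downward. Counted in either direction, the share was near that of all tested genes. The median log2 change of the 7 was 0.30, beside 0.06 for all tested genes. The groups did not overlap in 6 of the 7 (85.7%), against 73.6% of all tested genes. SERPINB3, SERPINB4 and CST3 stayed under the filter and are given by their values. In bulk RNA, fewer cells that express a gene and less RNA per cell cannot be told apart.

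**Figure D1:**
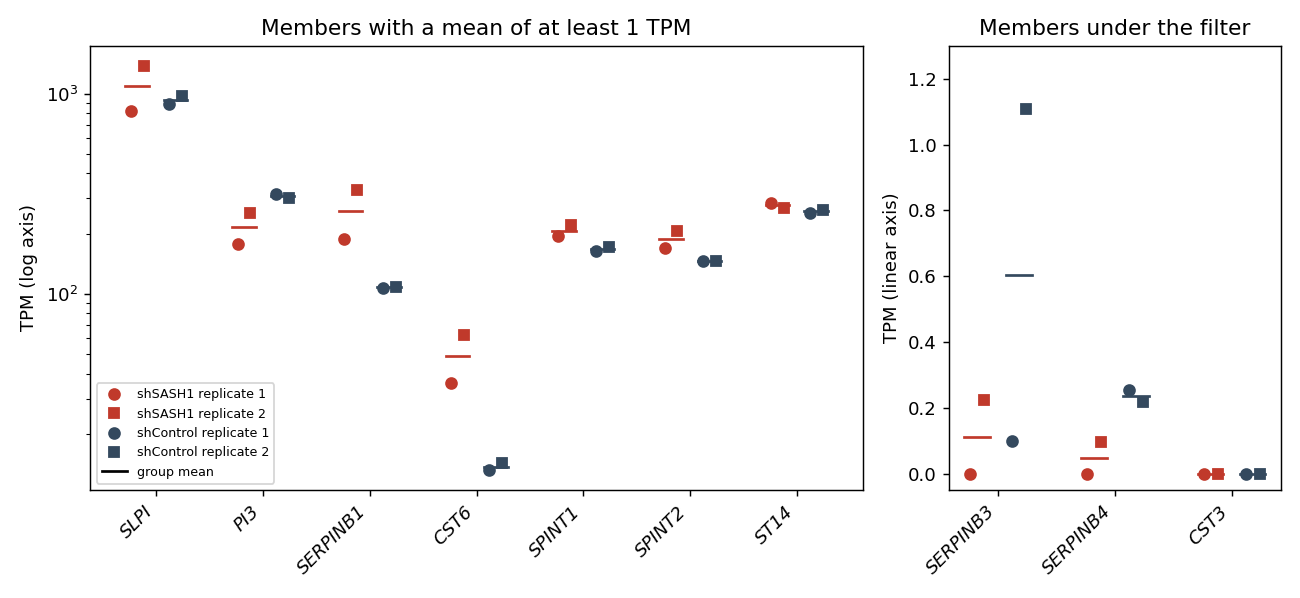
TPM of the 10 members in each library, with the 7 tested members on a log axis at the left and the 3 members under the filter on a linear axis at the right; red is shSASH1, dark blue is shControl, and bars are group means of 2 libraries. CST6 and SERPINB1 stand clearly higher in both shSASH1 libraries, while the SLPI values of shControl fall between the pair of shSASH1 values.

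Among the secreted inhibitors, SLPI (chromosome 20, 45252239 to 45254564, hg38, minus strand) was the most abundant member. It had 820 and 1374 TPM in the shSASH1 libraries, against 893 and 979 TPM in the shControl libraries. Its level lay above 99.5% of tested genes in shSASH1 and 99.4% in shControl. The groups overlapped, since replicate 1 of shSASH1 was below both controls and replicate 2 above both, and SLPI did not pass (log2 change 0.18 ± 0.26 SE, limma adjusted p = 0.612). Its log2 change was 0.56 without shSASH1 replicate 1 (adjusted p = 0.0135 on the control spread alone) and -0.19 without replicate 2 (adjusted p = 0.126). It made up 43.8% and 50.6% of the summed TPM of the 10 members in the shSASH1 libraries, and 47.2% and 49.3% in the shControl libraries. That sum was 1871 and 2718 TPM in shSASH1 and 1894 and 1987 TPM in shControl, and was highest in replicate 2 of shSASH1.

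PI3 (chromosome 20, 45174876 to 45176544, plus strand) encodes elafin, a skin and mucosal inhibitor of elastase that transglutaminase can link to other proteins. It lies 75.7 kb from SLPI in the chromosome 20 cluster of WAP-domain genes. PI3 had 177 and 255 TPM in shSASH1, against 315 and 302 TPM in shControl. Both depleted libraries lay below both controls, but the difference did not pass (log2 change -0.54 ± 0.18 SE, limma adjusted p = 0.0854). It passed with a separate spread for each group (adjusted p = 0.0395) and with voom on rebuilt reads (adjusted p = 0.0236). Its log2 change was -0.28 without shSASH1 replicate 1 and -0.80 without replicate 2, with adjusted p = 0.0177 and 0.00639 on the control spread alone. The ratio of SLPI to PI3 within a library, in which any scaling of the library cancels, was 4.63 and 5.39 in shSASH1 and 2.83 and 3.24 in shControl. The ratios of the groups did not overlap (log2 difference 0.72), and an exact two-sided permutation test gave p = 0.33, the smallest that 2 against 2 libraries allow.

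CST6 (chromosome 11, 66011841 to 66013505, plus strand) showed the largest change of the 7 tested members. It encodes cystatin E/M, a secreted inhibitor of legumain and of cathepsins L and V that is known as a gene silenced in many breast tumours. CST6 had 35.8 and 62.2 TPM in the shSASH1 libraries, against 13.2 and 14.3 TPM in the shControl libraries. Both depleted libraries were well above both controls, although the depleted pair differed widely from each other. The mean was 49.0 ± 18.7 TPM in shSASH1 and 13.8 ± 0.722 TPM in shControl (SD, n = 2 each), a ratio of 3.56. CST6 rose by 1.71 ± 0.27 log2 units (SE; adjusted p = 0.0145 by limma). The call was lost without either shControl library (adjusted p = 0.145 and 0.141). These levels rest on 178 and 247 rebuilt reads in shSASH1 and 59 and 74 in shControl, the fewest of any tested member. The 309 other tested genes in the same 20 Mb window had a median log2 change of -0.07. Of the 47 tested genes that start within 500 kb, 3 were higher and 3 lower, where 18.8% of all tested genes were higher and 13.3% lower.

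LGMN, legumain, the best known target of cystatin E/M, was at 43.3 and 46.5 TPM in shSASH1 and 43.9 and 47.0 TPM in shControl. The groups overlapped (log2 change -0.02 ± 0.08 SE, limma adjusted p = 0.874). The CST6 to LGMN ratio of TPM was 0.827 and 1.34 in shSASH1, against 0.301 and 0.304 in shControl. The 2 groups of ratios did not overlap (log2 difference 1.80, exact permutation p = 0.33).

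CST3 (chromosome 20, 23626706 to 23638473, minus strand), cystatin C, an inhibitor secreted by almost all cell types, was listed at 0 in all 4 libraries. A 0 in this table does not by itself show that a gene is silent. EEF1G, a translation elongation factor subunit, and TOMM6, a subunit of the mitochondrial import pore, genes that cells in general use, were also listed at 0 in all 4 libraries (both named after their values were seen). CST3 overlaps the long noncoding gene AL121894.2 on the same strand over 491 bases. The neighbouring cystatin genes CST1, CST2 and CST4 were listed at 0 in all 4 libraries too.

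Among the serpins, SERPINB1 (chromosome 6, 2832332 to 2842006, minus strand) rose. It encodes an inhibitor of neutrophil elastase, cathepsin G and proteinase 3 that acts within cells. SERPINB1 had 189 and 331 TPM in the shSASH1 libraries, against 107 and 109 TPM in the shControl libraries. Both depleted libraries were higher, and replicate 2 was much the higher of the pair. The mean was 259.8 ± 100.5 TPM in shSASH1 and 108 ± 0.962 TPM in shControl (SD, n = 2 each), a ratio of 2.40 and a log2 change of 1.20 ± 0.27 (SE), with limma adjusted p = 0.0335. The call was lost without a filter on low values (adjusted p = 0.0609), without a variance trend (0.0611) and after centring on the chromosome window (log2 change 0.88, adjusted p = 0.0772), as well as without either shControl library (0.207 and 0.211). Without shSASH1 replicate 2 its log2 change was 0.80 (adjusted p = 0.00576, on the control spread alone).

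Other genes of the same stretch of chromosome 6 were also higher. The 90 other tested genes of its 20 Mb window had a median log2 change of 0.32, beside 0.06 for all tested genes. Of 15 tested genes that start within 500 kb, 7 were higher and 1 lower, where 18.8% of all tested genes were higher and 13.3% lower. Its 2 protein-coding relatives there both rose. SERPINB9, an inhibitor of granzyme B, lies 45.3 kb away and had 10.48 and 16.9 TPM in shSASH1, against 3.62 and 3.13 TPM in shControl (log2 change 1.71 ± 0.25 SE, limma adjusted p = 0.0115). SERPINB6, an inhibitor of trypsin-like proteases and cathepsin G, had 38.8 and 47.3 TPM in shSASH1, against 22.5 and 22.9 TPM in shControl (log2 change 0.89 ± 0.11 SE, limma adjusted p = 0.00919, or 0.57 centred on the window). In each of the 3 clustered serpins both depleted libraries stood above both controls, and replicate 2 above replicate 1. The groups did not overlap, in either direction, in 73.6% of all tested genes.

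The promoter of SERPINB1 is shown because it is the called member with a matched promoter sequence; 5 of the 10 members had an entry in the RefSeq table (GRCh38.p14). The 250 bases upstream of the RefSeq start lie at chr6:2841864-2842113, minus strand. That start differs from the GENCODE one, so part of the window lies inside the gene span given above. The bases are written 5′ to 3′ with capitals for GC boxes (GGGCGG) and for the TATA core (TATAA), searched on both strands.
SERPINB1: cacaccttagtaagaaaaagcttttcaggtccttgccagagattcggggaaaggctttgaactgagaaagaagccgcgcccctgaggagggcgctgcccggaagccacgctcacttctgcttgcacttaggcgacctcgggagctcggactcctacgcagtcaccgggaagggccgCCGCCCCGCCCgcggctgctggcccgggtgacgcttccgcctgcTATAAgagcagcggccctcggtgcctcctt
The window held 2 overlapping GC boxes, 1 TATA core and 21 CpG dinucleotides, with a GC content of 63.6%. Of 35114 RefSeq promoters of this length, 42.6% held a GC box and 18.9% a TATA core. The letters of a TEAD site (GGAATG), an AP-1 site (TGANTCA), the NF-kB consensus and the core of the interferon-stimulated response element were not found in it, on either strand. These letters were present in 11.9%, 6.57%, 5.21% and 3.02% of the promoters.

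SERPINB3 (chromosome 18, 63655197 to 63661963) and SERPINB4 (63637259 to 63644298), both on the minus strand, encode the squamous cell carcinoma antigens, inhibitors of cathepsins and of chymotrypsin-like proteases. They are near copies 10.9 kb apart, with 95.2% of 1173 coding bases identical and identical runs of up to 129 bases. Only 4.10% of 100-base windows were identical, so reads of that length can be shared over a small part only. Each value is uncertain, also because it rests on few reads. SERPINB3 also lies within SERPINB11 on the opposite strand. The pair is shown over coding bases 952 to 1011, the 60-base stretch within a single exon where they differ most, with capitals for the 10 bases that differ, from GENCODE transcripts at chr18:63655819-63655878 and chr18:63637881-63637940 of hg38.
SERPINB3: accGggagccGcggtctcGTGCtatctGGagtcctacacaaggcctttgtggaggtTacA
SERPINB4: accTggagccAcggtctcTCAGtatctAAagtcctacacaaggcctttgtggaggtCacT
SERPINB3 was listed at 0 and 0.224 TPM in shSASH1 and at 0.0999 and 1.11 TPM in shControl, or 0 and 2 rebuilt reads against 1 and 14. SERPINB4 was at 0 and 0.0949 TPM in shSASH1 and 0.254 and 0.217 TPM in shControl, or 0 and 1 rebuilt reads against 3 and 3. Both were low, with SERPINB3 highest in replicate 2 of shControl. In a fit with no filter on low values, over 21574 genes, neither passed (log2 change -0.46, limma adjusted p = 0.428, and -0.24, adjusted p = 0.105).

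**Figure D2:**
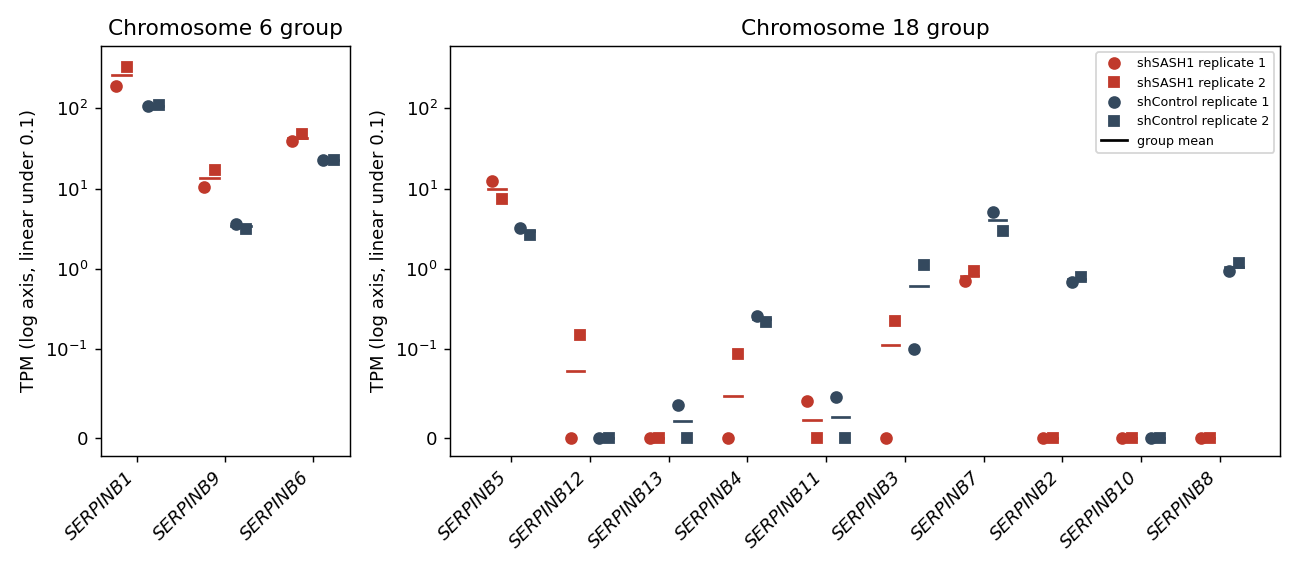
TPM of the 13 clade B serpins in each library, in the order in which they lie along chromosome 6 (left) and chromosome 18 (right), on a log axis that is linear under 0.1 TPM; red is shSASH1, dark blue is shControl, and bars are group means of 2 libraries. The 3 genes on chromosome 6 are higher in both shSASH1 libraries, while on chromosome 18 SERPINB5 is higher, SERPINB7 is lower, and SERPINB2 and SERPINB8 are listed at 0 in both shSASH1 libraries.

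The other chromosome 18 serpins did not move as a block. SERPINB5, maspin, first described as a tumour suppressor of mammary epithelium, rose to 12.5 and 7.45 TPM in shSASH1, against 3.19 and 2.65 TPM in shControl (log2 change 1.45 ± 0.27 SE, limma adjusted p = 0.0202). SERPINB7, a serpin of the upper epidermis, fell to 0.693 and 0.941 TPM in shSASH1, against 5.11 and 2.93 TPM in shControl (log2 change -1.43 ± 0.28 SE, adjusted p = 0.0243, or 0.0556 with a separate spread for each group and 0.0507 without shSASH1 replicate 1; log2 change -2.27 with voom on rebuilt reads). With a shSASH1 mean of 0.817 TPM, SERPINB7 reached the filter only through its shControl values. SERPINB2 and SERPINB8 were under the filter and listed at 0 in both shSASH1 libraries. In shControl SERPINB2 had 0.684 and 0.797 TPM and SERPINB8 had 0.93 and 1.17 TPM. In the fit with no filter both fell (limma adjusted p = 0.0112 for SERPINB2 and 0.0111 for SERPINB8). Of the 10 other clade B serpins 4 were tested, and 3 rose and 1 fell, where 18.8% of all tested genes were higher and 13.3% lower.

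The membrane inhibitors of matriptase were slightly higher in shSASH1 without passing the test. SPINT1 (chromosome 15, 40844018 to 40858207, plus strand), HAI-1, had 194 and 221 TPM in the shSASH1 libraries, against 164 and 172 TPM in the shControl libraries. SPINT2 (chromosome 19, 38244035 to 38292614, plus strand), HAI-2, had 170 and 207 TPM in shSASH1, against 146 and 146 TPM in shControl. In both genes each depleted library was above each control, by 1.23 and 1.29 times in the means. Neither passed (SPINT1 log2 change 0.30 ± 0.08 SE, limma adjusted p = 0.0544; SPINT2 log2 change 0.36 ± 0.11 SE, adjusted p = 0.0634). Both lay close to the threshold, and both passed with a separate spread for each group (adjusted p = 0.0438 for SPINT1 and 0.0336 for SPINT2). Without shSASH1 replicate 2 the log2 change was 0.21 for SPINT1 and 0.22 for SPINT2, and without replicate 1 it was 0.39 and 0.50. On the control spread alone, adjusted p was 0.0424 and 0.0198 without replicate 2, and 0.0106 and 0.00511 without replicate 1. SPINT1 had a log2 change of 0.17 when centred on its window (adjusted p = 0.179). SPINT1 overlaps its antisense gene SPINT1-AS1 over 370 bases, and SPINT1-AS1 was at 17.6 and 23.9 TPM in shSASH1 and 16.8 and 22.6 TPM in shControl. SPINT2 overlaps PPP1R14A on the opposite strand over 5355 bases, and the protein-coding gene AC011479.1 on the same strand over 3464 bases. Whether counting used strand is not known from the labels, so reads of antisense pairs cannot be told apart, and strand would not separate the same-strand pair.

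ST14 (chromosome 11, 130159562 to 130210376, plus strand), matriptase itself, was nearly level. It had 285 and 268 TPM in shSASH1, against 254 and 264 TPM in shControl. The depleted libraries were higher by a small margin, and ST14 did not pass (log2 change 0.10 ± 0.06 SE, limma adjusted p = 0.278), nor did it under any of the 15 other settings tried. The SPINT1 to ST14 ratio of TPM was 0.680 and 0.823 in shSASH1 and 0.648 and 0.652 in shControl. The SPINT2 to ST14 ratio was 0.596 and 0.771 in shSASH1 and 0.577 and 0.554 in shControl. Both inhibitor to protease ratios were higher in shSASH1 without overlap, mostly through replicate 2 (log2 differences 0.20 and 0.26). Each of the 6 within-library ratios computed had an exact permutation p of 0.33, also after Benjamini-Hochberg adjustment, which is the floor of the design.

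**Figure D3:**
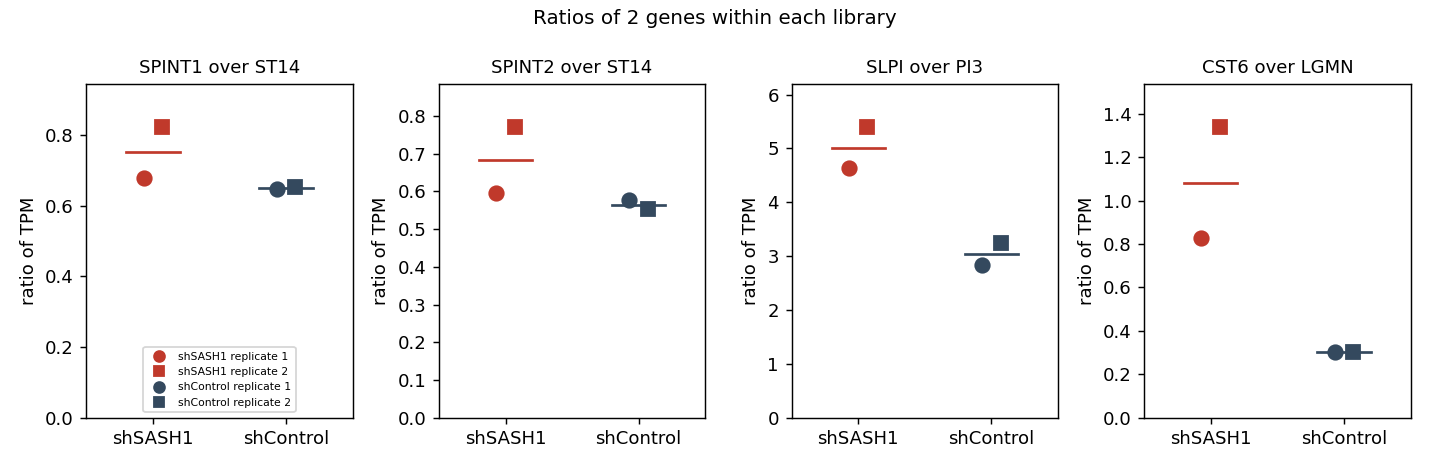
Ratios of TPM of 2 genes within each library, for SPINT1 over ST14, SPINT2 over ST14, SLPI over PI3 and CST6 over LGMN; points are libraries, bars are means of 2 libraries, red is shSASH1 and dark blue is shControl, and each axis starts at 0. All 4 ratios are higher in both shSASH1 libraries, with shControl pairs close together. These are 4 of the 6 ratios computed, and the ST14 to PRSS8 ratio, not drawn, was lower in both shSASH1 libraries.

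The order of the members by TPM differed between the groups. In shSASH1 the means ran SLPI, ST14 (277 ± 12.2 TPM), SERPINB1, PI3 (216 ± 55.0 TPM), SPINT1 (207 ± 18.8 TPM), SPINT2 (188 ± 25.8 TPM) and CST6 (SD, n = 2). From ST14 to SPINT2 the values of neighbouring genes overlapped between libraries, so their order is not beyond the spread. In shControl the order was SLPI, PI3 (309 ± 9.32 TPM), ST14 (259 ± 7.11 TPM), SPINT1 (168 ± 5.33 TPM), SPINT2 (146 ± 0.0937 TPM), SERPINB1 and CST6, and no neighbours overlapped. SERPINB1, below SPINT2 in both controls, was above it in replicate 2 of shSASH1 and also in replicate 1.

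Among the 7 tested members, the depleted libraries disagreed most on SERPINB1, CST6, SLPI and PI3 and least on ST14. ST14 is the only protease among them, so inhibitors and proteases cannot be contrasted as classes. In shSASH1, replicate 2 was above replicate 1 by 0.81 log2 units in SERPINB1, 0.78 in CST6, 0.74 in SLPI and 0.52 in PI3. The gap was 0.28 in SPINT2 and 0.18 in SPINT1, and -0.09 in ST14. A gap of at least 0.5 in either direction was thus seen in 4 of the 7 tested members, against 14.1% of all tested genes in shSASH1. In shControl the largest gap among the 7 was 0.13, in SLPI. With replicate 2 of shSASH1 left out, CST6 had a log2 change of 1.32 and SERPINB1 of 0.80, and SLPI was at -0.19. With replicate 1 left out, the changes were 2.10 and 1.60, and SLPI was at 0.56. The direction held in both for CST6 and SERPINB1 and turned for SLPI.

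**Figure D4:**
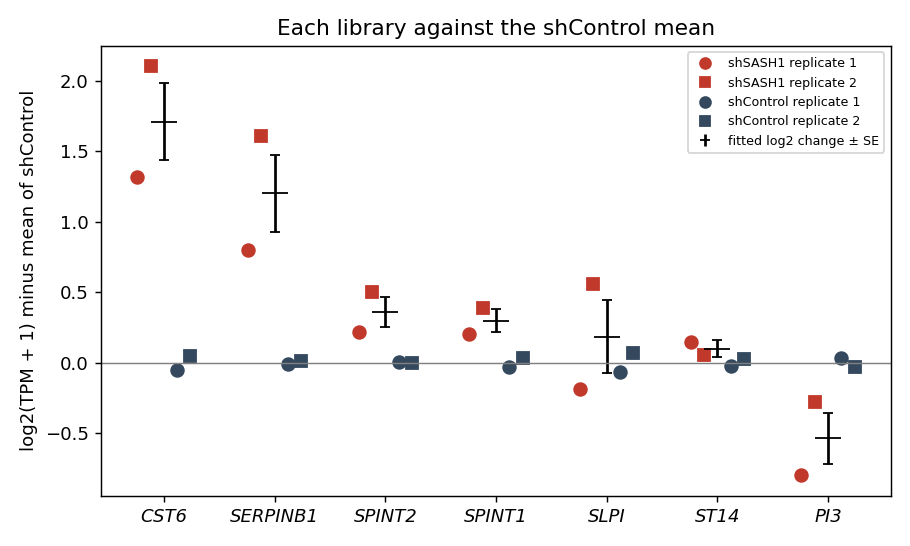
log2(TPM + 1) of each library minus the shControl mean, for the 7 tested members; red is shSASH1, dark blue is shControl, and black marks are the fitted log2 change with its SE (n = 2 libraries per group). Replicate 2 of shSASH1 lies above replicate 1 in every tested member except ST14, by 0.81 log2 units in SERPINB1 and 0.78 in CST6.

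Of the other inhibitor families, most tested Kunitz-domain genes passed as higher and no other cystatin did. Among 78 further genes of the system 44 were tested, and 15 rose and 6 fell (47.7% called, with a median log2 change of 0.16, against 32.0% called and a median of 0.06 over all tested genes). These 78 genes were listed by family and function, with earlier results of these data known. Of 4 tested Kunitz-domain genes 3 rose, where 18.8% of all tested genes were higher. TFPI, the tissue factor pathway inhibitor, had 30.9 and 35.2 TPM in shSASH1, against 10.3 and 9.31 TPM in shControl (log2 change 1.65 ± 0.11 SE, limma adjusted p = 0.00299). The plasmin and matrix protease inhibitor TFPI2 rose to 30.3 and 35.9 TPM in shSASH1, against 0.279 and 1.07 TPM in shControl (log2 change 4.38). Its shControl values rest on 4 and 20 rebuilt reads, and its log2 change ran from 4.04 to 5.75 over the other settings. With a shControl mean of 0.676 TPM, TFPI2 reached the filter only through its shSASH1 values. APP, the amyloid precursor protein, which has Kunitz-containing isoforms, rose as well (log2 change 0.66). APLP2, a neighbour of ST14, was at 437 and 486 TPM in shSASH1 and 483 and 484 TPM in shControl (adjusted p = 0.499).

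Of 3 tested cystatins beside CST6, 1 passed as lower and none as higher. CSTA, the cystatin of cornified epithelium, fell to 0.669 and 2.24 TPM in shSASH1, against 5.12 and 5.33 TPM in shControl (log2 change -1.42 ± 0.36 SE, limma adjusted p = 0.0427). That call was lost without a filter (adjusted p = 0.0755), without a variance trend (0.0605) and with a pseudocount of 0.1 TPM (0.0608), and the log2 change was -2.15 with voom and -0.94 without shSASH1 replicate 1. CSTB, the abundant intracellular cystatin, had 166 and 153 TPM in shSASH1, against 139 and 147 TPM in shControl, and did not pass (adjusted p = 0.152). It was higher in both depleted libraries, but its log2 change of 0.15 became -0.15 when centred on its chromosome window. WFDC2, a further secreted WAP-domain protein and the marker HE4, rose to 2.17 and 3.72 TPM in shSASH1, against 0.639 and 0.218 TPM in shControl. The log2 change was 1.45 ± 0.31 SE (limma adjusted p = 0.0289), or 2.74 with voom. Its shControl values rest on 5 and 2 rebuilt reads. Both were under 1 TPM, so WFDC2 reached the filter only through its shSASH1 values. Kazal-type inhibitors were scarce: the single tested one, SPINK2, had 1.58 and 3.46 TPM in shSASH1 and 1.33 and 1.51 TPM in shControl (log2 change 0.49, adjusted p = 0.293, or 0.89 without shSASH1 replicate 1 and 0.094 without replicate 2). In the fit with no filter, where 3977 of 21574 genes passed, SPINK5 passed as higher (limma adjusted p = 0.0430). It had 0.661 and 0.915 TPM in shSASH1 and 0.234 and 0.0997 TPM in shControl. SPINK6 also passed there (adjusted p = 0.0361), at 0.503 and 0.315 TPM in shSASH1 and listed at 0 in both shControl libraries. SPINK6 rests on 2 and 1 rebuilt reads in shSASH1 and 0 and 0 in shControl, too few to show a rise.

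The serine proteases listed beside matriptase went in both directions, with 2 of 8 tested genes higher and 2 lower (4 of 8 called, against 32.0% of all tested genes). TMPRSS11E, a protease of stratified epithelia, fell to 7.46 and 2.70 TPM in shSASH1, against 49.4 and 49.2 TPM in shControl (log2 change -3.17 ± 0.41 SE, limma adjusted p = 0.00891). TMPRSS4 fell to 29.2 and 31.9 TPM in shSASH1, against 62.6 and 61.7 TPM in shControl (log2 change -1.0, adjusted p = 0.00334). TMPRSS2, an androgen-regulated protease known for priming viral spike proteins, rose to 112 and 124 TPM in shSASH1, against 66.1 and 66.6 TPM in shControl (log2 change 0.82, adjusted p = 0.00477, or 0.53 centred on the window). PRSS22, a tryptase of epithelia, rose too (log2 change 0.81, adjusted p = 0.0130). In all 4 both depleted libraries lay on the same side of both controls. That was also so in 7 of the 8 tested genes of this list and in 73.6% of all tested genes. PRSS8, prostasin, the partner with which matriptase forms an activation cascade, had 81.8 and 78.8 TPM in shSASH1 and 71.9 and 71.6 TPM in shControl (adjusted p = 0.101). The ST14 to PRSS8 ratio was 3.49 and 3.40 in shSASH1 and 3.52 and 3.68 in shControl.

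Of 11 tested substrates and receptors linked to matriptase and the HAI proteins, 4 passed as higher and 0 as lower (36.4%). Counted in either direction, that share was near the 32.0% of all tested genes called. Of all tested genes 18.8% were higher and 13.3% lower. MET, the receptor of hepatocyte growth factor, had 93.1 and 91.1 TPM in shSASH1, against 33.9 and 29.5 TPM in shControl (log2 change 1.51 ± 0.09 SE, limma adjusted p = 0.00247). CDCP1, a surface glycoprotein that serine proteases cut, rose by less (log2 change 0.55, adjusted p = 0.0238). F2RL1, the protease-activated receptor PAR2, had 102 and 94.6 TPM in shSASH1, against 75.1 and 78.9 TPM in shControl (log2 change 0.34 ± 0.07 SE, adjusted p = 0.0242). Its call was lost after quantile normalization (adjusted p = 0.0598), median-of-ratios scaling (0.0608), without a variance trend (0.0599) and after window centring (log2 change 0.21, adjusted p = 0.0871). HGF, the ligand of MET that matriptase can activate, was at most 0.117 TPM in any library.

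Of 12 tested cysteine proteases, the enzymes that cystatins inhibit, 2 were higher and 2 lower (33.3%), a share near the 32.0% of all tested genes called. CTSC, which activates granule serine proteases, had 43.0 and 48.9 TPM in shSASH1, against 20.9 and 21.0 TPM in shControl (log2 change 1.10 ± 0.09 SE, limma adjusted p = 0.00400), and CTSS rose as well (1.57). CTSB had 63.1 and 81.6 TPM in shSASH1, against 149 and 159 TPM in shControl (log2 change -1.09 ± 0.14 SE, adjusted p = 0.00843). CTSF also fell (-0.35, adjusted p = 0.0374), a call lost without a filter (0.0536), without a variance trend (0.0740), with a replicate block (0.0635) and after window centring (0.0689). CTSZ, the most abundant of the 12 over all 4 libraries, had 146 and 131 TPM in shSASH1 and 119 and 126 TPM in shControl and did not pass (adjusted p = 0.146). The neutrophil granule proteases ELANE, PRTN3 and CTSG (elastase, proteinase 3 and cathepsin G) were under the filter, at most 0.283, 1.05 and 0.111 TPM in any library, as was their inactive relative AZU1 (azurocidin), at most 0.257 TPM.

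**Figure D5:**
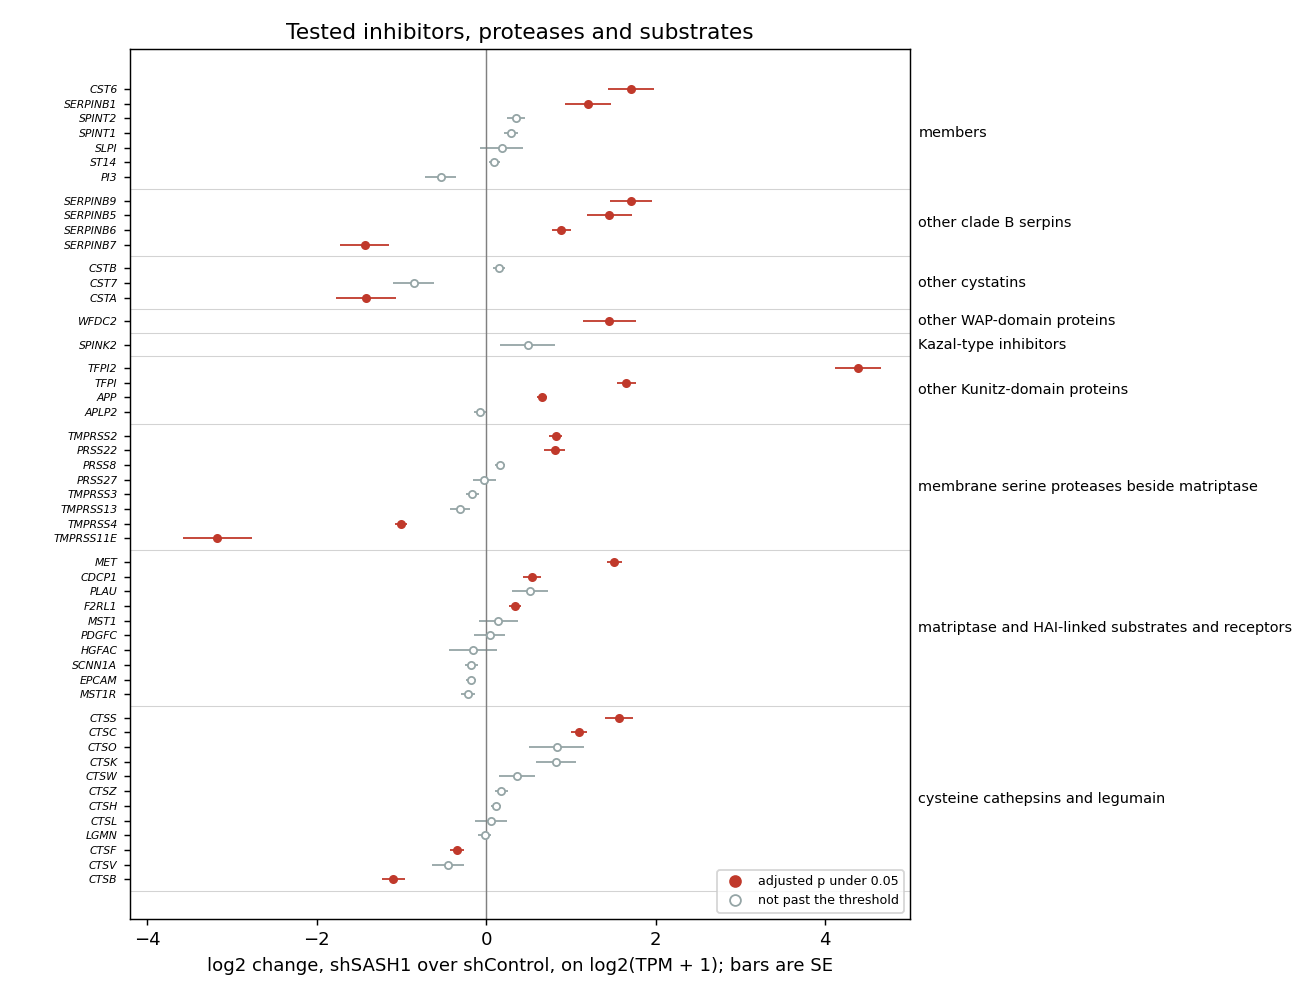
Fitted log2 change of shSASH1 over shControl on the log2(TPM + 1) scale, with its SE, for the 7 tested members and tested genes of related families (n = 2 libraries per group); red points have an adjusted p under 0.05. CST6 and SERPINB1 are the red points among the members, while TFPI2 at 4.38 and TMPRSS11E at -3.17 are the largest changes in the plot.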

How the data were processed

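RNA was extracted with TRIzol and libraries were made with an NEBNext Ultra kit, per the labels' protocols. The authors deposited TPM per Ensembl gene. The submitters' processing notes name STAR, DESeq2 and the build hg38; counter, annotation and strand setting are unknown. All 26518 identifiers were found in GENCODE 29. Genes averaging at least 1 TPM were fitted on log2(TPM + 1) with limma 3.58.1 in R 4.3.3 (variance trend, no block), a scale that understates changes of low genes. Reads were rebuilt from TPM times exon length: 88.8% to 89.4% of values up to 20 reads fell within 0.05 of a whole number, so these are estimates, used for depth and for voom with median-of-ratios library sizes. Replicates differed beyond counting noise (chi-square per degree of freedom 24.1 in shSASH1 and 2.19 in shControl). The fitting script was tested in 5 simulations with 2 libraries per group and 200 changed genes. It recovered 40.6% of log2 changes of 1 in size and 72.6% of changes of 2, and 4.29% of calls were false. A gene that did not pass may thus still differ. Members and lists were chosen with earlier results of these data known. Named genes are the members, SASH1, up to 4 called genes per list by size of change, the most abundant tested gene of each list and the most abundant marker; other names were added after values were seen. One gene counted among the substrates and receptors is not reported here. Alternatives covered pseudocount, filter, scaling, variance model, block, window centring and left-out libraries.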

Additional observations from a re-analysis of the deposited data

How the results depend on the processing

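The 2 members called became 1 without a filter, without a variance trend and after centring on 20 Mb windows. The count was 3 with a filter at a mean of 5 TPM, 4 with voom on rebuilt reads and 5 with a separate spread per group. Leaving out a library gave 0 to 6 members, 0 to 31 related genes (21 with all libraries) and 0 to 7728 of all genes (4630 with all). Without an shControl library the spread comes from the wider shSASH1 pair alone, and the lone library is assumed to vary like it. Without an shSASH1 library it comes from the closer shControl pair, so passes there are no support. Asking also for a log2 change of 1 or more in size left 1288 genes, 2 of them members. The labels number replicates 1 and 2 in both groups, but same-numbered libraries did not deviate together (correlation -0.03). With a replicate block 2 members, 21 related genes and 3929 genes in all passed. When a library was left out, the log2 change ran from -0.19 to 0.56 for SLPI and from -0.069 to 0.033 for LGMN, and CSTB turned to -0.15 with window centring. The cause was not tested. PI3, SPINT1 and SPINT2 each passed in 4 of 15 other settings, 2 of which left out an shSASH1 library, and ST14 in 0. Genes under 1 TPM rest on few reads.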
